A study of Mus musculus with 2 samples.

Results

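Complex I, the NADH:ubiquinone oxidoreductase, is the largest enzyme of the mitochondrial respiratory chain, and the mouse genes named Nduf encode its nuclear subunits and some of the factors that assemble it. Members were the protein-coding genes whose symbol starts with Nduf, 46 of 22015 nuclear protein-coding genes in the deposited gene tables. They comprised 36 subunit genes, 8 Ndufaf assembly factor genes and 2 genes that carry the name but were counted apart, Ndufa4 and Ndufa4l2. Among the subunits, 7 are core subunits, which hold the redox centres or line the quinone site, and 29 are accessory. The Nduf-named processed pseudogenes Ndufa11b, Ndufab1-ps, Ndufb4c and Ndufs6b and the non-coding Ndufb1-ps fell outside the rule. Ndufb1-ps had 76.2 TPM in replicate 2, against 72.9 TPM in replicate 1, and Ndufb4c is described below with Ndufb4.

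Total RNA was sequenced from gastrocnemius, the large calf muscle, of 2 male mice of the F1 cross strain B6CASTF1/J (C57BL/6 by CAST), aged 36 days. The labels call the animals biological replicates 2 and 1 of a single group, with no genotype, treatment or time contrast, and both carry the same donor entry. Libraries were depleted of ribosomal RNA, kept strand, started from 300 ng of RNA and held 38754338 expected counts in replicate 2 and 36952277 in replicate 1. With 1 group of 2 animals no test was possible, and values are those of each animal or the mean ± SD (n = 2), a spread that may be partly technical.

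Complex I takes electrons from NADH, passes them along flavin and iron-sulfur clusters to ubiquinone, and pumps protons across the inner mitochondrial membrane. It is L-shaped, with a peripheral arm in the matrix, where NADH is oxidised and quinone reduced, and a membrane arm that pumps protons. Mitochondrial DNA encodes 7 core subunits of the membrane arm, and all other subunits come from nuclear genes. Skeletal muscle depends on the enzyme for sustained work, and defects in its subunits or assembly factors cause mitochondrial disease in people. Levels are given as TPM, which divides reads by transcript length and scales each library to 1000000, so genes can be compared with each other.

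Sequences bear on the levels of several members. The coding sequence of Ndufb4, a membrane arm subunit on chromosome 16 (mm10, minus strand, gene chr16:37647170-37654453), spans 3 exons. Ndufb4c is an intronless processed copy on chromosome 15 (chr15:73809507-73809896, minus strand) of 390 bases. All 387 coding bases of Ndufb4 were identical in Ndufb4c, so reads within them cannot be told apart by sequence. The stretch around the border of the first and the next coding exon of Ndufb4 (chr16:37654180-37654209 and chr16:37649131-37649160) is shown with its counterpart in the copy (chr15:73809687-73809746), with the bases after the border in capitals.
Ndufb4: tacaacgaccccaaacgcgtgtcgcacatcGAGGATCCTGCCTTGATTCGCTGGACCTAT
Ndufb4c: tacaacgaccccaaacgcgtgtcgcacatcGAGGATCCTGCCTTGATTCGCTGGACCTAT

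Ndufv3, an accessory subunit next to the NADH site, is made as a short and a long protein form that differ by a coding exon (chr17:31527310-31528401, plus strand, mm10). That exon holds 1092 bases, a multiple of 3, so the long form Ndufv3-201 has 1404 coding bases and the short form Ndufv3-202 has 312. The exon borders that tell the forms apart are shown with 30 bases on each side, those after the border in capitals. The short form joins chr17:31521663-31521692 to chr17:31531110-31531139. The long form joins the first of these to chr17:31527310-31527339 and then chr17:31528372-31528401 to the last exon.
Ndufv3 short form: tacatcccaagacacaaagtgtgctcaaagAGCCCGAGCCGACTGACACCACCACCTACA
Ndufv3 long form, into the extra exon: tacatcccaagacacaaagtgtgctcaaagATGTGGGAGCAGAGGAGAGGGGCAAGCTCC
Ndufv3 long form, out of the extra exon: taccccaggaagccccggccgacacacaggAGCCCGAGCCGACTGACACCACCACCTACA

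Promoters were read from RefSeq (GRCm38.p6) as 250 bases before to 50 after each start site, and 40 of the 46 members had an entry. Ndufa2, Ndufa4l2, Ndufaf6, Ndufb9 and Ndufs1 were among those without. Each of 4 motifs was searched on both strands. The letters AAGATGGCG, the core bound by YY1, stood in 6 of 40 members (15.0%), against 1.64% of 27025 genes with a promoter in the table. CGCATGCGC, the core of NRF1, a factor known for mitochondrial genes, stood in 4 members (10%), against 1.95% of all genes. CCGGAAGT, an ETS core, was found in Ndufs3 (2.50% of members, against 4.31% of all genes), and TCAAGGTCA, the core of the estrogen-related receptors, in no member (0.466% of all genes). Median GC content was 59.3% over the promoters of members and 52.7% over all promoters in the table. All members are expressed here, whereas the genes with a promoter were not limited to expressed ones. No share over expressed genes or promoters of like GC content was computed.

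The YY1 letters lay in the same orientation and shortly after the RefSeq start site in all 6 holders, with their first base at positions 11 to 36 of the transcribed bases. In 5 of the 6 genes the ATG within the motif was an annotated start codon, the exception being Ndufaf8. The stretches run chr3:51408915-51408943 for Ndufc1, chr6:126849097-126849125 for Ndufa9, chr10:80249463-80249491 for Ndufs7 and chr11:120098934-120098962 for Ndufaf8. Those of Ndufs6 and Ndufs4 run chr13:73328433-73328459 and chr13:114388045-114388069. Ndufs7 and Ndufaf8 lie on the plus strand and the others on the minus strand, each is written in the direction of its gene, and capitals mark the motif.
Ndufc1: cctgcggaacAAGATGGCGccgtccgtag
Ndufa9: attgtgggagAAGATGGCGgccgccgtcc
Ndufs7: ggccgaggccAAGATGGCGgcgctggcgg
Ndufaf8: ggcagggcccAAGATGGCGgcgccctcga
Ndufs6: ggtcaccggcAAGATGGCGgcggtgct
Ndufs4: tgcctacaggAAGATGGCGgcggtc

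The NRF1 letters stood before the start site in Ndufa8, Ndufaf4 and Ndufa11, and after it in Ndufaf5. The first 3 are shown, from chr2:36049339-36049372 (minus strand), chr4:24897946-24898004 (plus strand) and chr17:56717678-56717736 (plus strand), with the motif in capitals. The holders included subunits and assembly factors, with means of 141 TPM for Ndufa8, 159 ± 19.4 TPM for Ndufa11, 15.1 ± 0.778 TPM for Ndufaf4 and 14.5 ± 0.240 TPM for Ndufaf5. Such matches are descriptions of sequence and not sites of binding.
Ndufa8: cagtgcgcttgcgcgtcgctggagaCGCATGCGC
Ndufaf4: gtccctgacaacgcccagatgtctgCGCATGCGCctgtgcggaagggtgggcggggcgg
Ndufa11: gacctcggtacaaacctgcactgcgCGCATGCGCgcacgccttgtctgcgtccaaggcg

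Markers of skeletal muscle fibres were abundant in both libraries, the 6 listed genes summing to 96889 TPM in replicate 2 and 92352 TPM in replicate 1. Ucp1 of brown fat was listed at 0 in both. Of the 3 listed heart genes, Nppa was at 0 in both and Tnni3 had 0.18 TPM in replicate 2 and 0.16 TPM in replicate 1. The third, Myh6, had 16.4 TPM in replicate 2 and 8.19 TPM in replicate 1. The animals differed in other cell or fibre markers. All 6 slow fibre genes were higher in replicate 2 (417 TPM in sum, against 213 TPM in replicate 1), as were 4 of 4 adipocyte genes past 0.5 TPM (48.7 and 27.9 TPM for the list of 5). All 5 fibroblast genes summed to 892 TPM in replicate 2, against 1726 TPM in replicate 1, and each was lower in replicate 2. The 5 Schwann cell genes (102.45 and 450 TPM) and the 5 macrophage genes (16.3 and 26.7 TPM) were also each lower in replicate 2, given before replicate 1. The 5 endothelial genes were closer in sum, at 69.5 TPM in replicate 2 and 57.2 TPM in replicate 1, but not alike gene by gene. Kdr (5.12 and 2.69 TPM) and Egfl7 (25.2 and 14.7 TPM) were clearly higher in replicate 2, given first. Cdh5 and Tie1 differed little, and Pecam1 was lower in replicate 2 (13.7 and 15.4 TPM).

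Every member reached 1 TPM in both animals, and 44 of 46 reached 5 TPM. The 36 subunit genes summed to 6968.5 TPM in replicate 2, against 6073 TPM in replicate 1, and the 8 Ndufaf genes to 102.9 TPM and 95.8 TPM. Subunit genes thus held 67.7 times the summed TPM of the Ndufaf genes in replicate 2 and 63.4 times in replicate 1. All 36 subunits stood among the top 10% of nuclear protein-coding genes by mean TPM, and no Ndufaf gene did. The lowest subunit, Ndufb3, was still 3.69 times the highest Ndufaf gene, Ndufaf1. The order of the subunits was shared by the animals (Spearman rho 0.98 over 36 genes within the same pair of libraries).

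**Figure D1:**
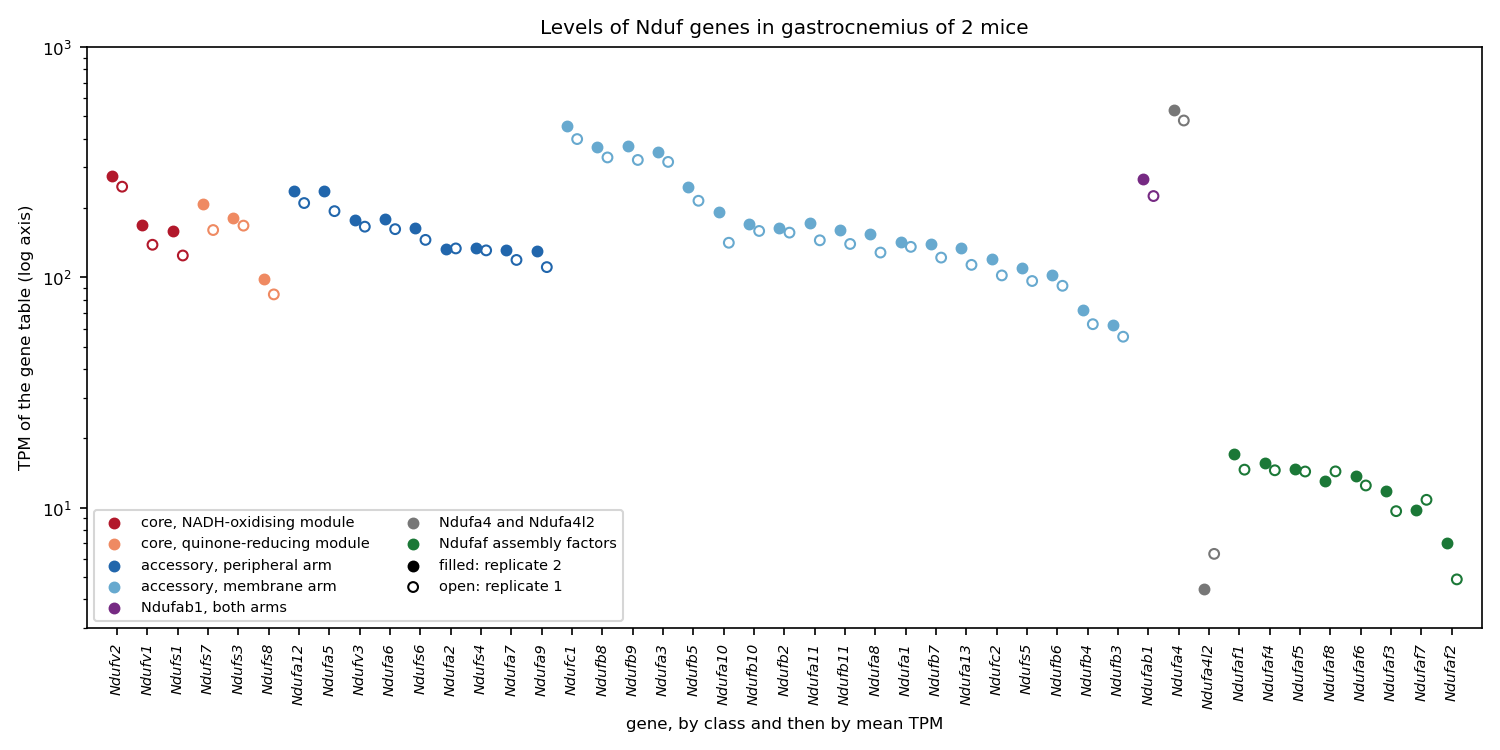
TPM of the members on a log axis, filled for replicate 2 and open for replicate 1, ordered by class and then by mean, with 1 core gene not shown. The 36 subunits lie between 58.8 and 426 TPM as means, the 8 assembly factors between 5.95 and 15.9 TPM.

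The core subunits of the NADH-oxidising module, at the tip of the peripheral arm, lay in the upper and middle range of the subunits. Ndufv2 (chr17:66078638-66101559), which carries an iron-sulfur cluster, had 274.7 TPM in replicate 2 and 247.6 TPM in replicate 1. Ndufv1 (chr19:4007384-4012806), which binds NADH and the flavin, had 169 TPM and 139 TPM in replicates 2 and 1. Ndufs1 (chr1:63143596-63176833), the largest subunit and holder of further clusters, had 159 TPM in replicate 2 and 124 TPM in replicate 1. All 3 were higher in replicate 2, and Ndufv2 stood well above the other 2 in both animals.

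The core subunits of the quinone-reducing module sit between the NADH site and the membrane. Ndufs7 (chr10:80249121-80256794), which holds the cluster next to quinone, had 209 TPM in replicate 2 and 161 TPM in replicate 1. Ndufs3 (chr2:90894634-90904827) had 182 TPM and 168 TPM in the same order. Its neighbour in the module Ndufs8 (chr19:3908863-3912774), which carries clusters, was the lowest core gene with 98.0 TPM in replicate 2 and 84.4 TPM in replicate 1. The median of the 7 core genes was 171 ± 15.0 TPM.

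Accessory subunits had a median of 152 ± 15.3 TPM. The core median was higher by 18.65 TPM in replicate 2 and by 19.16 TPM in replicate 1, and in the second table by 56.1 TPM and 16.7 TPM. In the peripheral arm the 9 accessory genes lay within a narrow band, between 120 and 223 TPM. Ndufa12, a relative of the assembly factor Ndufaf2, had 237 TPM in replicate 2, against 210 TPM in replicate 1, and Ndufa5 stood beside it with 238 TPM and 194 TPM. Ndufs4, whose loss causes a Leigh-like disease in mice, had 135 TPM in replicate 2, against 131 TPM in replicate 1, and Ndufs6, which binds zinc, 163 TPM and 146 TPM. Ndufa9, which binds NADPH near the quinone site, was the lowest of this arm at 130 TPM in replicate 2 and 111 TPM in replicate 1. Ndufv3 had 178 TPM in replicate 2 and 166 TPM in replicate 1.

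The 19 accessory genes of the membrane arm held both ends of the range. Ndufc1 (chr3:51404677-51408988), a small membrane subunit, was the highest subunit gene at 453 TPM in replicate 2 and 398 TPM in replicate 1. Ndufb8, Ndufb9 and Ndufa3, further membrane arm subunits, followed with means of 349, 348 and 334 TPM. At the low end stood Ndufb3 with 62.3 TPM in replicate 2 and 55.3 TPM in replicate 1, Ndufb4 with 71.9 and 62.7 TPM, and Ndufb6 with 102.7 and 92.0 TPM, each given for replicate 2 before replicate 1. Ndufs5, on the intermembrane side, had 110.2 TPM in replicate 2 and 96.5 TPM in replicate 1. Ndufc1 and Ndufb3, as means, stood 7.24-fold apart in the gene table. In the second transcript table Ndufb8 was the highest subunit with a mean of 718 TPM, 6.18 times the lowest, again Ndufb3, and Ndufc1 had a mean of 493 TPM.

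Between these ends lay members with known side roles. Ndufa10, which has the fold of a nucleoside kinase, had 192 TPM in replicate 2 and 141 TPM in replicate 1. Ndufa13, also known as GRIM-19, had 135 TPM and 113 TPM in replicates 2 and 1. Ndufab1, the mitochondrial acyl carrier protein that sits in both arms and also serves fatty acid synthesis, had 266 TPM in replicate 2 and 225 TPM in replicate 1. Ndufb5 and Ndufb2, membrane arm subunits, averaged 231 ± 22.7 and 160 ± 4.79 TPM. The 2 X-linked members of these male mice, Ndufa1 and Ndufb11, averaged 139 ± 5.18 and 150 ± 14.6 TPM, near the median of the autosomal accessory genes.

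Assembly factors act while the complex is built. The Ndufaf genes lay lower than the subunits, whose median was 12.4 times that of the Ndufaf genes in replicate 2 and 10.7 times in replicate 1. Ndufaf1, which acts on the membrane arm together with Ecsit and Acad9, was the highest Ndufaf gene with 17.2 TPM in replicate 2 and 14.6 TPM in replicate 1. Ndufaf4 and Ndufaf3, partners in building the quinone-reducing module, averaged 15.1 ± 0.778 and 10.8 ± 1.53 TPM. Ndufaf5, which hydroxylates an arginine of Ndufs7, had 14.7 TPM in replicate 2, against 14.4 TPM in replicate 1, and its partner Ndufaf8 had 13.0 TPM and 14.4 TPM in that order. Ndufaf6, a factor of the same module, had 13.8 TPM in replicate 2 and 12.5 TPM in replicate 1.

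Ndufaf7, a methyltransferase, had 9.74 TPM in replicate 2 and 10.8 TPM in replicate 1. Ndufaf2, which takes part in adding the NADH-oxidising module and is related to Ndufa12, was the lowest Ndufaf gene with 7.01 TPM in replicate 2 and 4.89 TPM in replicate 1. The relative within the finished enzyme, Ndufa12, averaged 223 TPM. The 8 factors had a median of 13.4 ± 0.0354 TPM and rested on 94 to 801 expected counts per library, against 987 to 16643 for the subunits.

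Assembly factors with other names ranged more widely. Of the 12 listed, 11 were found by symbol, and they summed to 150.6 TPM in replicate 2 and 131.6 TPM in replicate 1. Ecsit was the highest with 33.3 TPM in replicate 2 and 28.2 TPM in replicate 1, followed by Tmem70, which acts in both complex I and ATP synthase assembly, with 26.6 TPM and 22.4 TPM. Nubpl, which delivers iron-sulfur clusters to complex I, was the lowest with 1.81 TPM in replicate 2 and 1.49 TPM in replicate 1. By mean TPM, 5 of the 11 lay within the range of the Ndufaf genes, 4 above it and 2 below it.

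The members counted apart had the highest and the lowest mean of the 46 in the gene table, though Ndufaf2 was lower than Ndufa4l2 in replicate 1 and Ndufb8 was above Ndufa4 (639 TPM) in the second table. Ndufa4 (chr6:11900292-11907497), now assigned to complex IV, had 533 TPM in replicate 2 and 480 TPM in replicate 1. Its paralog Ndufa4l2 (chr10:127514967-127517154), known as a hypoxia-induced gene, had 4.45 TPM in replicate 2 and 6.31 TPM in replicate 1. The mitochondrially encoded complex I genes summed to 27608 TPM in replicate 2 and 22501 TPM in replicate 1 in the gene table. These sums were 3.96 and 3.70 times the sum of the nuclear subunits in those animals. In the second table they were 31368 and 26734 TPM in replicates 2 and 1, against 11010 and 10472 TPM for the nuclear subunits. Of these genes mt-Nd4l had 4245 and 4280 TPM in the gene table, in that order, but 27.43 and 49.97 TPM in the second. The ratio therefore depends on the table. Nuclear copies of mitochondrial DNA can share reads with the mitochondrially encoded genes.

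Set beside the other respiratory complexes, complex I subunits had a lower median, with overlapping ranges. Replicate 2 had a median of 166 TPM over them and 342 TPM over 38 listed nuclear subunit genes of complexes II to V. Replicate 1 had 143 TPM and 316 TPM. The median of complexes II to V was thus 2.06 times that of complex I in replicate 2 and 2.21 times in replicate 1, and the second transcript table gave ratios of 2.13 and 2.15. Medians were 220 ± 35.8 TPM for complex II, 328 ± 19.1 TPM for complex III, 473 ± 58.8 TPM for complex IV and 303 ± 11.9 TPM for complex V. In all, 26 of the 36 complex I subunits lay under the lowest listed gene of complexes III and IV, Uqcrc2 at 194 TPM. With complex II included, whose lowest gene Sdhd had a mean of 115 TPM, 6 of the 36 lay under the lowest gene. Subunits above the highest complex II gene, Sdhc at 263 TPM, included Ndufc1, Ndufb8, Ndufb9 and Ndufa3. No test was made of this gap, and complex V held a gene under every complex I subunit, Atp5g2 at 10.3 TPM. The second table gave Atp5g2 270 TPM in replicate 2 and 293 TPM in replicate 1, so its low place rests on the gene table. The lists did not hold every paralog of each subunit, that of complex IV holding Cox6a2, Cox7a1 and Cox8b. The medians and lowest genes of these complexes therefore depend on the genes listed.

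**Figure D2:**
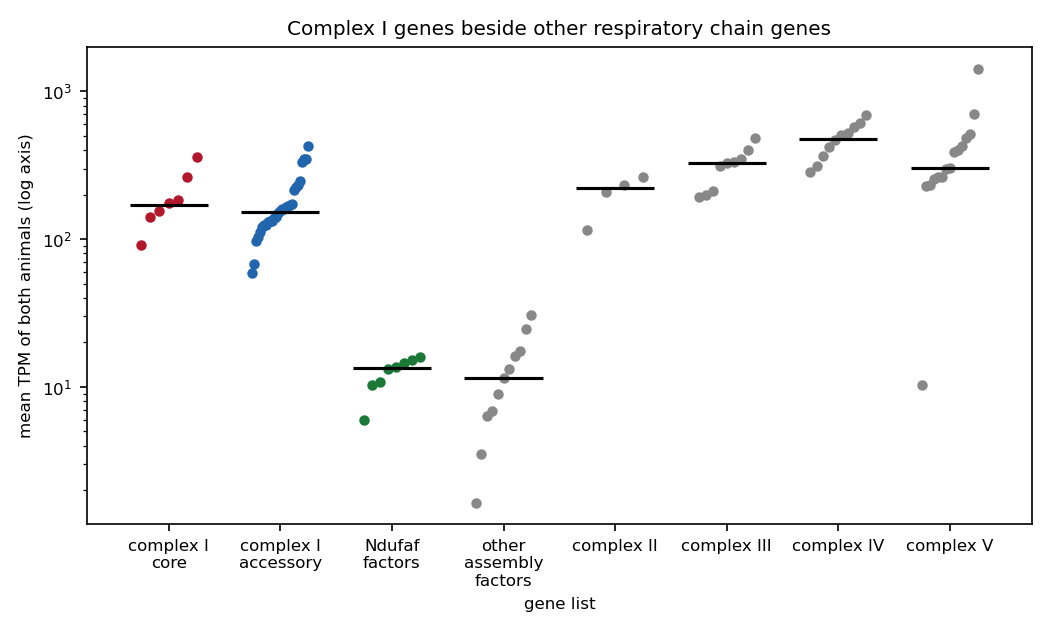
Mean TPM of each gene on a log axis by list, with the bar at the median (mean of the animals' medians). Core and accessory complex I genes centre at 171 and 152 TPM, Ndufaf genes at 13.4 TPM and complexes II to V at 220 to 473 TPM.

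For the subunit genes the animals differed slightly and mostly in a single direction. Of the 36 subunit genes 35 were higher in replicate 2, with Ndufa2 as the exception at 133.0 TPM in replicate 2 and 133.6 TPM in replicate 1. The median of their log2 ratios between the animals (replicate 2 over 1, computed from TPM + 0.1) was 0.20, against 0.01 over 11531 protein-coding genes of at least 0.5 TPM. All subunits exceed 50 TPM, and over the 868 protein-coding genes of at least 50 TPM the median was 0.09, with 592 (68.2%) higher in replicate 2. TPM rescaled to nuclear protein-coding genes moved the median of all genes to -0.06 and that of the subunits to 0.13, with 33 of 36 higher in replicate 2, against a median of 0.02 and 53.8% higher among genes of at least 50 TPM. In the second transcript table the median was -0.11 over all genes, 0.07 over the subunits, with 30 of 36 higher, and -0.03 over genes of at least 50 TPM, with 44.1% higher. Fewer cells or fibres of a type and less RNA per cell cannot be told apart in such bulk tissue.

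The 7 core genes had the larger shift, a median log2 ratio of 0.29 with all 7 higher in replicate 2, and 0.22 after rescaling and 0.21 in the second table. Ndufs7 (0.38) and Ndufs1 (0.35) led, and Ndufs3 was lowest at 0.12. Accessory genes had a median of 0.18, 0.12 after rescaling and 0.04 in the second table. Ndufa10 had the largest ratio of any subunit, 0.44, and was higher in replicate 2 under each of these scalings. Ndufs4 and Ndufb2, at 0.04 and 0.06, turned to lower in replicate 2 after rescaling, and Ndufv3, Ndufa3, Ndufa1, Ndufs5 and Ndufab1 did so in the second table.

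Assembly factors had a median log2 ratio of 0.12 with 6 of 8 higher in replicate 2, 0.05 after rescaling and 0.01 in the second table. Ndufaf2 had the largest ratio of all members, 0.51, on 134 and 94 expected counts in replicates 2 and 1, and Ndufaf8 (-0.14) and Ndufaf7 (-0.15) were lower in replicate 2. Ndufaf5 turned to lower under both scalings, and in the second table Ndufaf3 turned to lower and Ndufaf8 to higher. Ndufa4l2 was lower in replicate 2 at -0.49, the largest fall among members, and likewise after rescaling (-0.57) and in the second table (-0.67).

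No member differed 2-fold with deposited credibility intervals apart. Of 10939 protein-coding genes with at least 50 expected counts 2.20% did so, and 0 of 46 members lies near that share. The largest fold between animals was 1.43, that of Ndufaf2. Intervals alone lay apart for 29 of 46 members with the higher value in replicate 2 (9.60% of the tested genes) and for 0 of 46 with the lower value there (9.34%). The intervals narrow with level, so the nearer background is again that of the 868 genes. There 42.7% lay apart and higher in replicate 2 and 16.5% apart and lower, and of the 36 subunits 28 were higher and none lower. These intervals cover read assignment and counting within a library, not the spread between animals.

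The same shift was seen in the other complexes. Genes of complexes II to V had a median log2 ratio of 0.20, with 37 of 38 higher in replicate 2, 0.13 after rescaling and 0.07 in the second table, values equal to those of the complex I subunits at this precision. The succinate dehydrogenase genes of complex II stood at 0.30, 0.23 after rescaling and 0.15 in the second table. The mitochondrially encoded complex I genes had a median of 0.44, 0.37 after rescaling and 0.26 in the second table. Of these 7 genes 6 were higher in replicate 2 in the gene table and 5 in the second, with mt-Nd4 at 0.08 and mt-Nd4l at -0.01 in the gene table. Other assembly factors stood at 0.15, 0.08 after rescaling and 0.01 in the second table. The summed slow fibre markers were higher in replicate 2 and the fibroblast, Schwann cell and macrophage markers lower, as given above, and their part in these ratios was not tested.

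**Figure D3:**
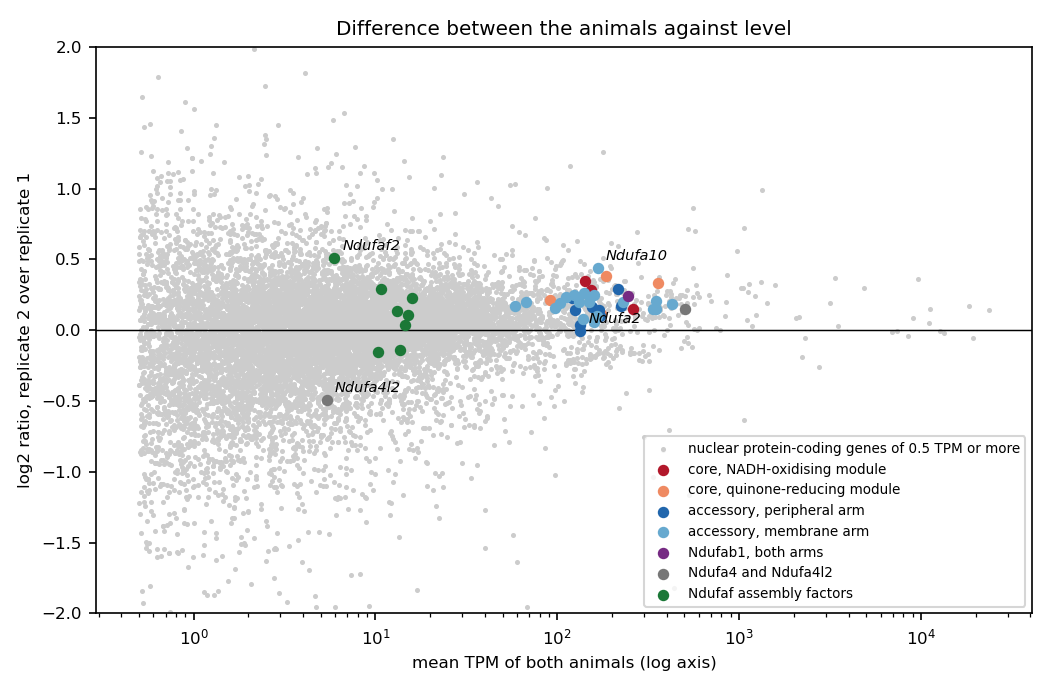
Log2 ratio of replicate 2 over replicate 1 against mean TPM (log axis) for members, coloured by class, and for nuclear protein-coding genes of at least 0.5 TPM in grey; 44 grey genes beyond 2 either way are outside the axis. The subunits lie just above 0, with a median of 0.20.

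Longer subunit genes had larger ratios. Across the 36 subunits the deposited gene length and the log2 ratio had a Spearman rho of 0.47 and a Pearson r of 0.54, a description over genes of 1 pair of libraries. Median log2 ratios were 0.16 for the 15 subunits under 600 bases, 0.20 for the 15 from 600 to 1200 bases and 0.31 for the 6 over 1200 bases. All protein-coding genes of at least 50 TPM showed medians of 0.01 (n = 110), 0.06 (n = 193) and 0.10 (n = 565) in the same bins, with a rho of 0.18 and an r of 0.0348 over 868 genes. Core subunits are the longer ones, with a median length of 993.5 bases against 598 for accessory genes, so class and length cannot be told apart in the difference between them.

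A gene's level also depended on how reads were assigned. The second transcript table, made from the reads and an index rather than from alignments, gave 44 of 46 members a higher TPM, by a median ratio of 1.64 over the gene table, against 1.47 for all protein-coding genes of at least 0.5 TPM. As deposited 10 members were 2-fold or more apart, and after rescaling both tables to nuclear protein-coding genes 2 were, Ndufb4 (3.29 times higher in the second table) and Ndufa3 (0.42 times). Across subunits the tables' mean levels had a Spearman rho of 0.77. The other 9 members 2-fold apart as deposited, all higher in the second table, were Ndufv2, Ndufs3, Ndufs6, Ndufs5, Ndufb8, Ndufb5, Ndufb2, Ndufaf2 and Ndufaf3.

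For Ndufb4 the tables also differed in its copy. In the gene table Ndufb4 had 71.9 TPM in replicate 2, against 62.7 TPM in replicate 1, and the copy Ndufb4c had 217 TPM and 170 TPM in the same order, or 75.1% and 73.1% of the pair. The second table gave Ndufb4 373 TPM in replicate 2, against 348 TPM in replicate 1 and listed Ndufb4c at 0 in both. Summed, the pair had 261 ± 39.8 TPM in the gene table, near Ndufv2, where Ndufb4 alone was next to last among the subunits. The rescaled ratio of the pair between the tables was 0.85, in place of 3.29 for Ndufb4 alone. TPM divides reads by length, and Ndufb4c (390 bases) is shorter than Ndufb4 (598 bases in the gene table). Neither the sum nor its ratio therefore gives the level Ndufb4 would have with the copy's reads, which was not computed.

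Other members share sequence with expressed copies. Counting runs of 31 bases in protein-coding transcripts of a member that also occur in another gene's transcript, 11 of 46 members shared 10% or more and 21 shared none. Ndufs5 shared 26.5% with the processed pseudogene BC002163, which had 65.5 TPM in replicate 2 and 66.0 TPM in replicate 1 in the gene table and was listed at 0 in the second table. The pair together had 176 TPM in replicate 2 and 162 TPM in replicate 1, against 110.2 and 96.5 TPM for Ndufs5 alone. Ndufa12 shared 29.3% with Gm15920, a processed pseudogene given 62.1 TPM in replicate 2, against 54.3 TPM in replicate 1, and 155 TPM and 148 TPM in the second table. Ndufs3 shared the largest part, 49.3%, mostly with Gm12251 (45.8%), a processed pseudogene that had only 0.330 TPM in replicate 2 and 0.560 TPM in replicate 1. With Ndufb4, Ndufs5 and Ndufa12 each summed with their copy, a choice made after the values were seen, the rho between tables across subunits was 0.86. Ndufb9 shared 25.5% with the protein-coding gene model Gm49356, which is not a copy elsewhere but overlaps Ndufb9 itself. Their spans are chr15:58889298-58937359 for Gm49356 and chr15:58933756-58939488 for Ndufb9. Gm49356 had 2.36 TPM in replicate 2 and 2.49 TPM in replicate 1, but 122 TPM and 108 TPM in the second table. Summing moved the rescaled ratio of the tables away from 1 for Ndufb9 (1.03 alone, 1.23 summed) and for Ndufa12 (1.09 and 1.20), and with Ndufb9 summed too the rho was again 0.86.

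**Figure D4:**
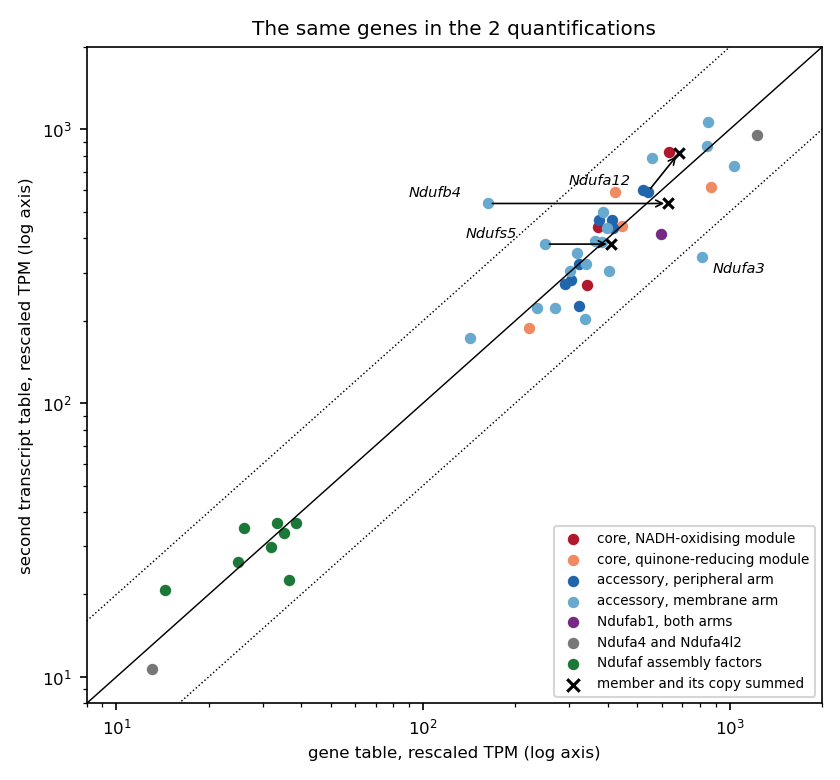
Mean level of each member in the gene table and in the second transcript table, both rescaled to sum to 1000000 over nuclear protein-coding genes, on log axes; the solid line marks equality and the dotted lines 2-fold. Crosses at the arrow heads are Ndufb4, Ndufs5 and Ndufa12 summed with their copies, and Ndufb4 alone lies 3.29-fold above equality.

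Transcript forms were also read from both transcript tables. Of the 46 members 40 have several annotated transcripts, and in 28 of these the tables had the same leading transcript. Over these 40, protein-coding transcripts held a median of 88.1% of the gene's TPM in the first transcript table and 85.7% in the second. They held over 90% in both tables in 15 of the 40 and under 50% in both in 8, namely Ndufa3, Ndufa5, Ndufa10, Ndufab1, Ndufaf4, Ndufb4, Ndufc1 and Ndufs4. The gene levels above therefore count, in these genes, a large part of RNA that is annotated as retained intron, processed transcript or target of nonsense-mediated decay.

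Some of these 8 had the same leading transcript in both tables. Ndufs4-204 of Ndufs4, annotated as a target of nonsense-mediated decay, held 60.3% of the gene's TPM in replicate 2 and 53.0% in replicate 1 in the first table, and 57.1% and 65.0% in the second. Protein-coding transcripts of Ndufs4 held 9.86% in replicate 2 and 14.6% in replicate 1 in the first table, and 12.7% and 14.3% in the second. For Ndufa5 the processed transcript Ndufa5-204 led both tables with 66.6% and 64.0%, and for Ndufb4 the retained-intron transcript Ndufb4-202 with 70.8% and 92.6%. The retained-intron transcript Ndufab1-205 led Ndufab1 with 37.1% and 80.3%, and the processed transcript Ndufaf4-202 led Ndufaf4 with 59.1% and 97.2%. Ndufa10 was split in both tables, its leading protein-coding transcript Ndufa10-201 holding 31.2% and 45.1%.

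In 12 members the tables named different leading transcripts. Ndufa3 was given to Ndufa3-204, a target of nonsense-mediated decay, in the first table (92.5%), and to the retained-intron Ndufa3-205 in the second (48.3%). Ndufc1, the highest subunit gene, was led by the retained-intron Ndufc1-203 in the first table (62.5%) and by the processed transcript Ndufc1-202 in the second (96.6%). For Ndufa7 protein-coding transcripts held 93.4% in the first table and 3.09% in the second, and for Ndufaf8 43.4% and 100%. Ndufb10 and Ndufb2 were led by protein-coding transcripts in the first table (89.9% and 85.6%) and by non-coding ones in the second (51.5% and 65.7%).

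Among the rest, Ndufs7, Ndufs8, Ndufa9, Ndufa4 and Ndufaf1 were led by different protein-coding transcripts in the tables, and Ndufaf7 by different retained-intron ones. Leading transcripts under 60% in a table were also seen, with the same transcript in both, in Ndufs1 (57.8% in the first table and 81.8% in the second), Ndufs3 (66.0% and 51.7%), Ndufv1 (71.2% and 34.2%), Ndufs6 (79.7% and 50.6%), Ndufb8 (76.4% and 52.5%), Ndufaf2 (98.5% and 49.4%) and Ndufaf3 (51.5% and 43.2%). Shares of forms in these genes rest on the quantification and are uncertain.

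**Figure D5:**
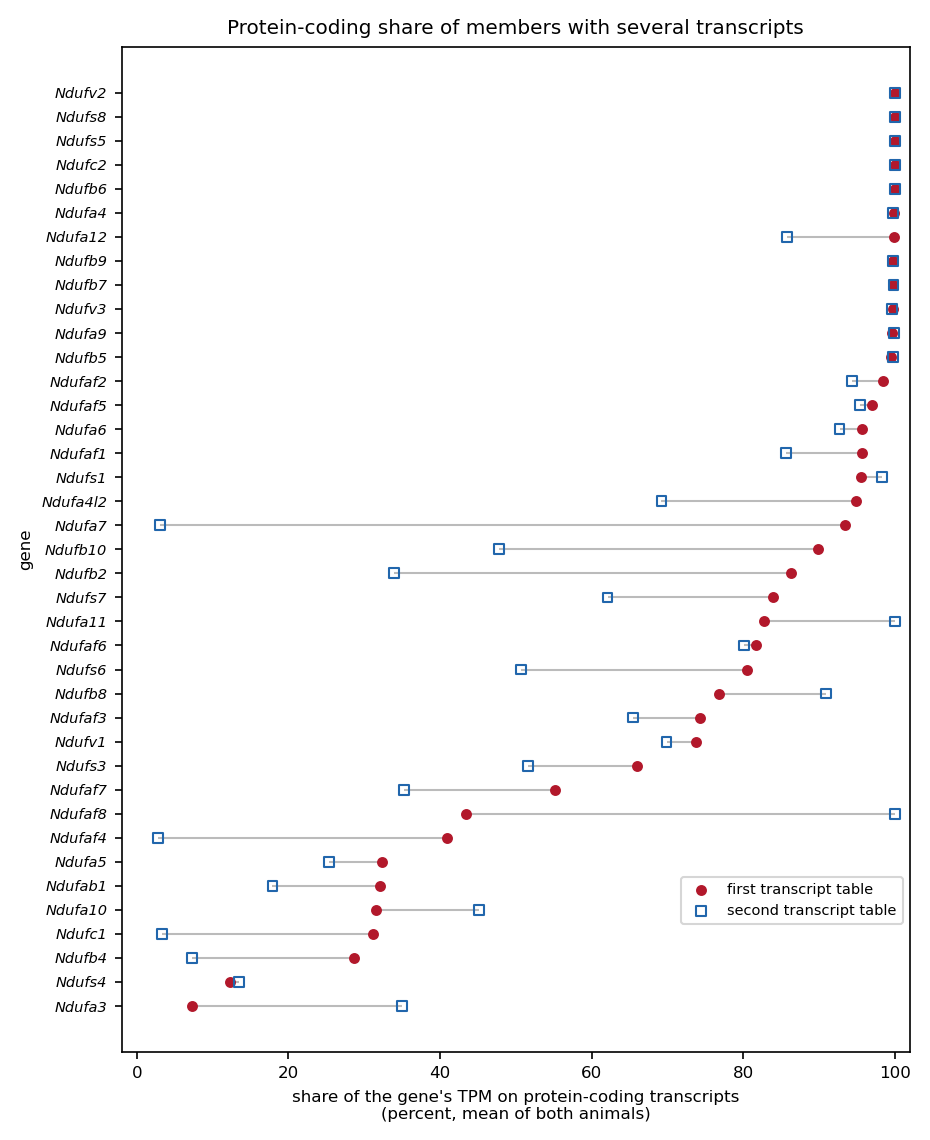
Share of each gene's TPM on protein-coding transcripts, in percent as the mean of both animals, in the first (dots) and second (squares) transcript tables for the members with several transcripts, 1 core gene not shown. The tables coincide near 100% for the upper genes and lie far apart for Ndufa7 (93.4% and 3.09%) and Ndufaf8 (43.4% and 100%).

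The forms of Ndufv3 were divided alike in both tables. The short form Ndufv3-202 held 98.5% of the gene's TPM in replicate 2 and 98.3% in replicate 1 in the first table, and 98.6% and 98.4% in the second. The long form Ndufv3-201 held 1.28% in replicate 2 and 1.37% in replicate 1 in the first table, a mean of 1.33% ± 0.0641, and 1.10% ± 0.0221 in the second. In TPM the long form stood at 2.28 in both animals in the first table, beside 175 TPM of the short form in replicate 2 and 163 TPM in replicate 1. Both tables and both animals thus placed nearly all Ndufv3 RNA of this muscle on the form that joins the exons directly, as in the first of the sequences shown above.

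Many members share their promoter region with a gene on the other strand. In 14 of the 46 (30.4%) a gene on the opposite strand started within 1000 bases upstream, against 16.3% of 10348 protein-coding genes of at least 1 TPM and 10.7% of all 22015. The start of Ndufa7 lay 10 bases from that of Rps28, a ribosomal protein gene, which had 204 TPM in replicate 2 and 224 TPM in replicate 1. Ndufb9 lay 18 bases from Tatdn1, which had 13.1 TPM in replicate 2 and 9.78 TPM in replicate 1. Ndufa5 lay 131 bases from Asb15, an ankyrin repeat gene of muscle, at 14.5 TPM in replicate 2 and 7.23 TPM in replicate 1. The partner was lower than the member in both animals in all but Ndufa7.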

How the data were processed

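The authors deposited, for each library, a gene table and 2 transcript tables on mouse build mm10 with GENCODE M21, per the deposited notes. Alignments to the transcriptome underlie the gene and first transcript tables, whereas the second was quantified from an index. Aligner and quantifiers: not given in the sources used. The authors' expected counts are estimated reads per feature, often fractional. Deposited TPM values sum to 1000000 over all features, FPKM values served as an alternative, and the deposited percent of each transcript was recomputed from TPM.

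Symbols and types came from the transcript identifiers and coordinates from GENCODE M21. Ratios are replicate 2 over replicate 1 on log2(TPM + 0.1), over genes of at least 0.5 TPM, a scale that understates low genes. A gene differed with 50 or more expected counts on average, a fold of 2 or more, and the deposited credibility intervals, of unstated level, apart. These functions were tested on simulated data. Rescaled TPM sums to 1000000 over nuclear protein-coding genes, which held 42.2% of TPM in replicate 2 and 40.2% in replicate 1.

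The members, gene lists and criteria were chosen with earlier results of these data known. Named with values were core subunits, all Ndufaf genes, the 5 highest and 5 lowest other members, members 2-fold apart between tables and members with special roles. Ndufa1, Ndufa2, Ndufa7, Ndufa8, Ndufa11, the copies and the opposite-strand genes were named after their values were seen. Coa1 was not found by symbol. The values of 1 core subunit enter the summaries but are not reported here. Sequences came from GENCODE M21 transcripts and RefSeq promoters. Software was Python 3.11.15 with pandas 2.3.3, numpy 2.4.6, scipy 1.17.1 and matplotlib 3.10.9.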

Additional observations from a re-analysis of the deposited data

How the results depend on the processing

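Of 66 alternative values for 10 results, 12 leave out an animal, which with 2 animals cannot move a mean past its SD and so says nothing of stability. Of the other 54, 23 moved. Only the log2 ratios could change sign, and none did. Some values could not move. Every member passed the filters of 50 mean expected counts and of 5 mean TPM, and no core or Ndufaf gene was summed with a copy. The values that did not move are therefore no measure of stability as a tally. The log2 ratios and counts have no SD between animals, so what did not move there was judged by size alone. FPKM gave a subunit sum of 5444, an Ndufaf sum of 83.01, and medians of 143 (core), 127 (accessory) and 11.2 (Ndufaf). The second transcript table gave 10741, 162, 299, 263 and 20.7 TPM in the same order, and rescaled TPM 15799, 241, 415, 369 and 32.5. Posterior mean TPM moved only the Ndufaf median, to 13.9. The median log2 ratio of subunits was 0.13 with FPKM, 0.073 in the second table and 0.13 rescaled, and that of Ndufaf genes 0.058, 0.012 and 0.052. The Ndufv3 long form share was 1.10% in the second table. Leaving out an animal gave subunit sums of 6073 to 6968.5 TPM and Ndufaf sums of 95.8 to 102.9 TPM. The count of members past the criteria was 0 under each alternative tried. Summing Ndufb4, Ndufs5 and Ndufa12 with their copies, and the background of genes of at least 50 TPM, were added after seeing the data. The sum gave 6838 TPM for the subunits, with the limit of length given above for Ndufb4. No paired analysis was possible because the samples form a single group. Depth limits the Ndufaf genes most, with 94 expected counts for Ndufaf2 in replicate 1. FPKM and rescaled TPM each multiply the TPM of a library by a constant, so the moves under them follow from the unit. The cause of the other moves was not tested.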
